A study of Homo sapiens with 10 samples.

Results

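The Kruppel-like factors (KLFs) are transcription factors with zinc fingers at the carboxyl end that bind GC-rich and CACCC DNA elements, and the genes described here are KLF2, KLF4, KLF5, KLF6, KLF7, KLF9, KLF10, KLF11, KLF13 and KLF16. They were found by their gene symbols in the count table, which held a row for each of the 10 among 28380 genes. The cells were RPE-1, a line of human retinal pigment epithelial cells immortalized with telomerase, and were treated in complete medium. For 4 h, 5 samples received the isothiocyanate sulforaphane (SFN, 25 µM by the study's methods) and 5 received only its vehicle, DMSO, with no other agent or genetic change named. Total counts ranged from 12375860 to 20666692 per library, and levels are given as CPM (counts scaled to the library total after the TMM correction of edgeR).

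KLF proteins differ mainly in the parts outside the zinc fingers, which recruit other proteins. KLF2, KLF4, KLF5, KLF6 and KLF7 are known for recruiting the acetyltransferases p300 and CBP and mostly activate genes, whereas KLF9, KLF10, KLF11, KLF13 and KLF16 carry a motif that binds the SIN3 corepressor. Many KLF mRNAs are short-lived and respond within hours to serum, shear stress, TGF-beta, hormones or cell damage. KLF4 and KLF5 are best known from epithelial differentiation and growth, KLF2 from endothelial cells under flow, and KLF10 and KLF11 as early genes of TGF-beta.

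SFN lowered KLF11, KLF2 and KLF16 and raised none of the 9 KLF mRNAs that had enough counts to be tested. The KLF11 mRNA fell by 59.0%, KLF2 fell by 48.5% and KLF16 fell by 29.8%. Each gene was tested with the quasi-likelihood (QL) method of edgeR, p-values were adjusted by Benjamini and Hochberg's procedure over 13378 genes, and the threshold was 0.05. By this test 3 of the 9 were decreased, where 13.9% of all genes tested were, and 0 were increased, where 9.07% were (23.0% in either direction). DESeq2 after adjustment also gave 3 decreased and 0 increased, where it called 2121 of all genes decreased and 1635 increased. Before adjustment the same threshold of the edgeR test gave 3 and 0 as well, for which the share of all genes is not given here. KLF4, which was too rare for this test, was higher in every SFN library than in any DMSO library. The libraries are bulk RNA, so fewer transcripts per cell and fewer cells with the transcript cannot be told apart.

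A pair of libraries stood apart in these genes, the replicates labelled DMSO 1 and SFN 2. KLF2 and KLF6 were at their highest, and KLF13 at its lowest, in DMSO 1 among the DMSO libraries and in SFN 2 among the SFN libraries. Over all genes tested, chi-square per degree of freedom between counts was 262 to 280 for DMSO 1 and another DMSO library. It was 3.70 to 14.3 for the other DMSO pairs. By this measure SFN 2 was about as far from SFN 1, 3 and 4 (20.5 to 29.1) as SFN 5 was (23.7 to 28.2). Between SFN 2 and SFN 5 it was 74.0. Without DMSO 1, 5 of the 9 KLF mRNAs were decreased (KLF2, KLF7, KLF11, KLF13 and KLF16) and KLF6 was increased by the edgeR QL test. In that comparison 23.5% of all genes tested were decreased and 22.5% increased (46.1% together). Without both DMSO 1 and SFN 2 the counts were again 5 and 1, against 24.4% and 23.2% of all genes (47.6% together). Leaving out both was chosen after the values of these genes had been seen, and it narrows the spread of genes extreme in them. Each result below is given with all libraries first.

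As a check of the label, marker genes were read in all libraries. MITF, OTX2 and BEST1, which mark the retinal pigment epithelium, had at least 97 counts in every library, while RPE65, RLBP1 and TTR, which mark mature pigment epithelium, had at most 4. Over the 8 pigment epithelium markers read, the summed level was 62.3 to 104 CPM in DMSO and 55.8 to 137 CPM in SFN, with MITF at a mean of 50.8 CPM in DMSO and 23.4 CPM in SFN and BEST1 at 18.8 and 42.4 CPM. BEST1 ran from 5.42 to 107 CPM over the libraries, and its highest value was in SFN 2, which raised its SFN mean. The part of these markers in the KLF results was not tested. Of the epithelial markers, the keratins KRT8 and KRT18 were present at 169 CPM or more, EPCAM had at most 2 counts and CDH1 was not analysed here. The mesenchymal markers VIM, FN1 and CDH2 had DMSO means of 5688, 8367 and 449 CPM. The summed level of the leukocyte and endothelial markers PTPRC, PECAM1 and CDH5 was at most 0.560 CPM in DMSO and 0.358 CPM in SFN.

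**Figure D1:**
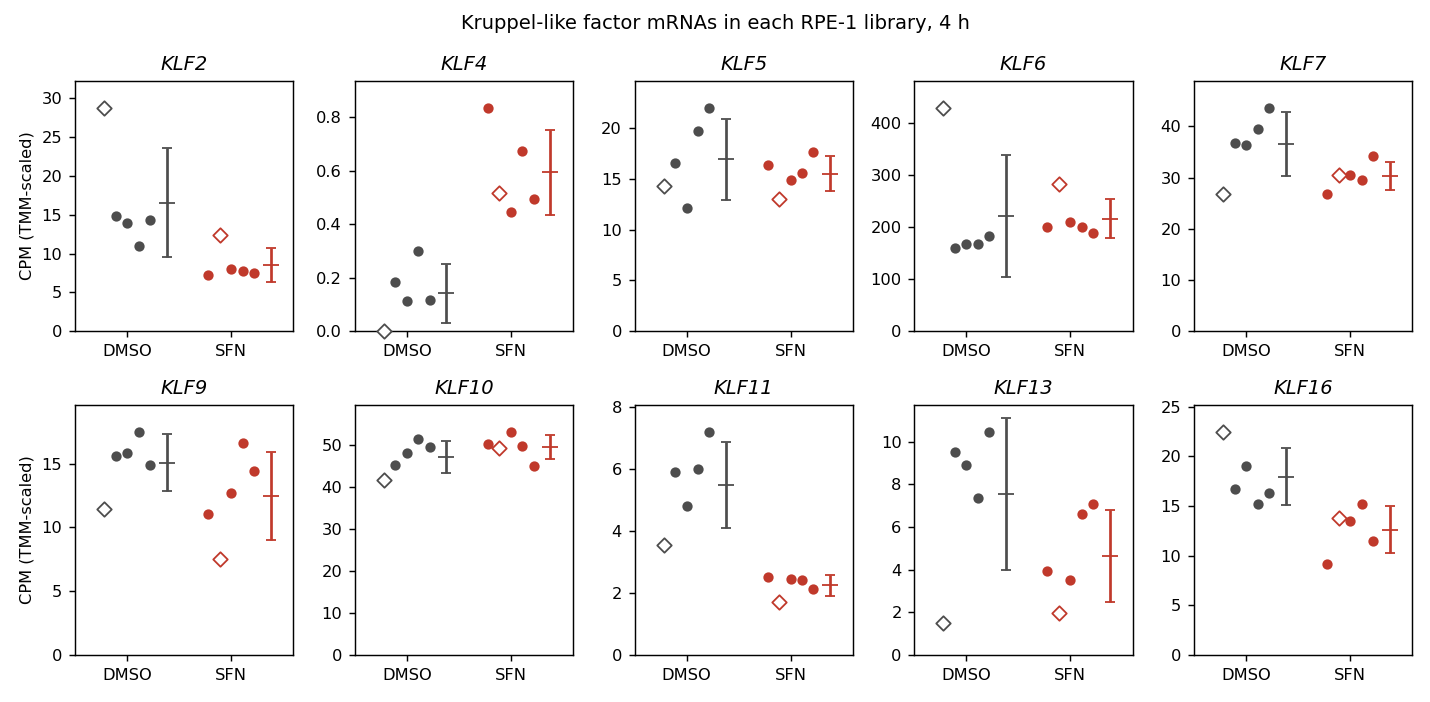
CPM of each KLF mRNA in the 5 DMSO (grey) and 5 SFN (red) libraries, with the mean ± SD beside the points and a separate vertical axis, from 0, in each panel. Open diamonds are DMSO replicate 1 and SFN replicate 2; KLF11 and KLF4 show no overlap between the groups, while the KLF6 value of 429.7 CPM in DMSO 1 lies far above all others.

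The sequence just before the transcription start is shown for KLF2 and KLF16, which fell, and for KLF9, which did not pass the test, because these windows differ widely in the elements the family itself binds. Each run is 250 bases in 5′ to 3′ order on the gene's own strand, from the RefSeq table of GRCh38.p14, and ends at the base before the RefSeq start. Capitals mark the GC box (GGGCGG) and CACCC on either strand and, in KLF2 alone, a match to the MEF2 site, which was looked for after the sequence had been seen. The windows are chr19:16324576-16324825 (plus strand) for KLF2, chr19:1863580-1863829 (minus strand) for KLF16 and chr9:70414658-70414907 (minus strand) for KLF9.
KLF2: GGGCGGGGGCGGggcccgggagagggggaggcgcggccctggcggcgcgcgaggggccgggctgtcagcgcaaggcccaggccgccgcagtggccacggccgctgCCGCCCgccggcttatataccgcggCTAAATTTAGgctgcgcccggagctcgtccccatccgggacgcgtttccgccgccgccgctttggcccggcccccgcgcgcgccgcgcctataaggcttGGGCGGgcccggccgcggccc
KLF16: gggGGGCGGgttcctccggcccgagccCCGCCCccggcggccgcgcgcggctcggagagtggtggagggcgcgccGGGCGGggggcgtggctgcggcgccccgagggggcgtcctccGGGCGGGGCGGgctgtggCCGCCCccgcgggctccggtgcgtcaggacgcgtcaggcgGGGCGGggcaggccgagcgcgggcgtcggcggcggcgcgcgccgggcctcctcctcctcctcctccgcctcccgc
KLF9: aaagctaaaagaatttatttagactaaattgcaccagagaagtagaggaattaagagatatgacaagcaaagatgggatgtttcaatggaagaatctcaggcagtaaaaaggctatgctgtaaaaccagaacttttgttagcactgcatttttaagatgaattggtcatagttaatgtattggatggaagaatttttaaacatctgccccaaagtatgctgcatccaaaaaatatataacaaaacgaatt

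The KLF2 window held 4 GC boxes and had 80.0% G and C, the KLF16 window held 7 with 86.4%, and the KLF9 window held 0 with 32.4%. The window of KLF11, which fell most, held 2, as did those of KLF5 and KLF6, which did not pass the test. The RefSeq start used for KLF11 lay 279 bases after the start of its canonical GENCODE transcript. Its window thus lies after that start, not before it. Those of KLF4, KLF13 and KLF7 held 4, 3 and 0. No order of the changes by these counts was tested. Such windows were at hand for 9 of the 10 genes, and 7 of these 9, KLF11 included, held a GC box, as did 64.1% of 13338 windows of genes in the count table. CACCC was found in 3 of the 9 and in 58.6% of all windows, TGACG, the core of the cAMP response element, in 4 and 27.6%, and CCAAT in 4 and 34.2%. The antioxidant response element TGACNNNGC, bound by NRF2, was in 0 of the 9 and 11.9% of all, the heat shock element GAANNTTC in 0 and 4.32%, and the C/EBP-ATF element TGATGNAA in 0 and 1.72%. Both strands were read, and matches of different motifs could share bases. The MEF2 site was in 1 of the 9 and in 0.420% of all windows. These letters are a description of the windows and do not show binding.

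KLF11, a TGF-beta early gene whose product represses through SIN3, showed the largest fall. The gene spans bases 10042849 to 10054836 of chromosome 2 (GRCh38) and has 4 exons in the canonical GENCODE 44 transcript. DMSO replicates 1 to 5 had 3.55, 5.92, 4.81, 6.02 and 7.22 CPM, and SFN replicates 1 to 5 had 2.50, 1.73, 2.46, 2.43 and 2.12 CPM. Every SFN library was thus below every DMSO library, and KLF11 was the 1 gene of the 9 tested without overlap, where 19.9% of all genes tested had none. The mean went from 5.51 ± 1.39 CPM to 2.25 ± 0.329 CPM (SD, n = 5), and the log2 fold change was -1.29 (standard error, SE, 0.21, 95% interval -1.75 to -0.82, adjusted p = 0.0010 by the edgeR QL test). The SFN libraries held only 20 to 42 KLF11 reads each. KLF11 was decreased in all 20 alternative analyses, with a log2 fold change between -1.41 and -1.05, and it was the only KLF mRNA tested that was lowered more than 2-fold, as 5.76% of all genes tested were.

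KLF2, the flow-responsive factor, is on chromosome 19, from 16324826 to 16328685, with 3 exons. Its values in DMSO were 28.8, 14.8, 13.9, 10.96 and 14.3 CPM for replicates 1 to 5, and in SFN they were 7.21, 12.3, 7.97, 7.69 and 7.49 CPM. SFN 2 lay above DMSO 4, so the groups overlapped, while the other 4 SFN libraries lay below all DMSO libraries. The mean went from 16.6 ± 6.99 to 8.54 ± 2.14 CPM (SD, n = 5), and the log2 fold change was -0.96 (SE 0.26, 95% interval -1.52 to -0.39, adjusted p = 0.019 by the edgeR QL test). Without DMSO 1 it was -0.68 (adjusted p = 0.0034 by the same test), and without DMSO 1 and SFN 2 it was -0.83 (adjusted p = 4.7e-05). The call was lost without SFN 1 (adjusted p = 0.053) and on quantile normalized values with limma-voom (adjusted p = 0.060). GENCODE 44 lists 4 processed pseudogenes of KLF2, which were not analysed here, and how reads that match both were counted is not given in the sources used here.

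KLF16, a small SIN3-binding repressor, is on chromosome 19, from 1852399 to 1863579, with 2 exons. DMSO replicates 1 to 5 had 22.5, 16.7, 19.0, 15.2 and 16.3 CPM, and SFN replicates 1 to 5 had 9.12, 13.8, 13.5, 15.2 and 11.4 CPM. The groups met at a single point, where SFN 4 and DMSO 4 had nearly equal CPM. The mean went from 17.9 ± 2.90 to 12.6 ± 2.36 CPM (SD, n = 5), with a log2 fold change of -0.51 (SE 0.16, 95% interval -0.86 to -0.16, adjusted p = 0.039 by the edgeR QL test). This call was close to the threshold and was kept in 11 of 20 alternatives, over which the log2 fold change lay between -0.58 and -0.41 and the adjusted p between 0.0061 and 0.10. Of the 10 libraries, leaving out DMSO 2, 3 or 5 or SFN 1, 3 or 5 lost the call, with adjusted p-values up to 0.091.

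KLF4, an epithelial differentiation factor that is also part of the classical reprogramming set, was barely detected. Its gene is on chromosome 9, from 107484852 to 107490482. The DMSO libraries held 0, 4, 2, 5 and 2 reads of it and the SFN libraries 14, 6, 6, 10 and 7. Every SFN value was above every DMSO value, and 10.8% of all 28380 genes had no overlap in either direction. Pooled over each group, 13 reads gave 0.145 CPM (95% exact Poisson interval 0.0774 to 0.249) in DMSO, and 43 reads gave 0.608 CPM (0.440 to 0.818) in SFN. The ratio was 4.18 with a counting interval of 2.20 to 8.47, and intervals of this kind cover counting error only. The count of 0 in DMSO 1 allows a level of up to 0.187 CPM (3 counts). With no filter on low counts, the edgeR QL test gave KLF4 an adjusted p of 0.047, in a fit where 4.00% of all genes were increased and 6.05% decreased.

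KLF6, induced early by cell injury, was by far the most abundant of these mRNAs and the one whose change depended most on 1 library. Its gene is on chromosome 10, from 3775996 to 3785281. DMSO replicate 1 held 429.7 CPM, and DMSO replicates 2 to 5 held 159.7, 168, 167 and 184 CPM. The SFN libraries held 199.98, 282, 211, 199.7 and 189.7 CPM, with SFN 2 the highest. With all libraries the log2 fold change was -0.03 (SE 0.27, 95% interval -0.62 to 0.56, adjusted p = 0.95 by the edgeR QL test). Without DMSO 1 no SFN value of KLF6 fell within the DMSO range, which then also held for KLF7, KLF11 and KLF13 (4 of the 9, against 36.2% of all genes tested). In that comparison the KLF6 mean in DMSO was 169.6 ± 10.02 CPM (SD, n = 4) and the log2 fold change was 0.35 (SE 0.11, adjusted p = 0.019 by the same test). Without DMSO 1 and SFN 2, KLF6 went from that mean to 200.01 ± 8.58 CPM in SFN (SD, n = 4), with a log2 fold change of 0.24 (SE 0.07, adjusted p = 0.014).

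KLF7, known from neuronal development, and KLF13, known as a regulator of CCL5 in T cells, showed the reverse dependence. KLF7 is on chromosome 2, from 207074137 to 207173856. It had 26.8 CPM in DMSO 1 and between 36.3 and 43.6 CPM in the other DMSO libraries, against 26.7 to 34.2 CPM in SFN. Its log2 fold change was -0.27 (SE 0.13, 95% interval -0.57 to 0.02, adjusted p = 0.18 by the edgeR QL test), and without DMSO 1 it was -0.37 (adjusted p = 0.0064 by the same test). The lncRNA MYOSLID overlaps KLF7 on the opposite strand and had at most 44 counts, against at least 354 for KLF7, and use of strand in the counting is not given in the sources used here.
KLF13 is on chromosome 15, from 31326835 to 31435665. DMSO replicates 1 to 5 had 1.49, 9.52, 8.89, 7.35 and 10.5 CPM, and SFN replicates 1 to 5 had 3.93, 1.98, 3.50, 6.61 and 7.06 CPM. The value in DMSO 1 was below every SFN value, and the other 4 DMSO values were above all of them. The log2 fold change was -0.70 with a wide 95% interval of -1.68 to 0.28 (adjusted p = 0.30 by the edgeR QL test). Without DMSO 1 it was -0.96 (SE 0.26, adjusted p = 0.0089 by the same test), and without SFN 2 as well it was -0.78 (adjusted p = 0.0043).

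The remaining genes did not pass the test with all libraries, without DMSO 1 or without DMSO 1 and SFN 2. KLF5, a growth-promoting factor of epithelia encoded on chromosome 13 from 73054976 to 73077541, had 12.1 to 21.96 CPM in DMSO and 13.0 to 17.7 CPM in SFN. Its log2 fold change was -0.13 (95% interval -0.49 to 0.24, adjusted p = 0.65 by the edgeR QL test). KLF9, which responds to glucocorticoids and is also an NRF2 target, is encoded on chromosome 9 from 70384604 to 70414657. It had 11.5 to 17.5 CPM in DMSO and 7.51 to 16.6 CPM in SFN (log2 fold change -0.27, 95% interval -0.70 to 0.16, adjusted p = 0.37 by the same test). KLF10, the other TGF-beta early gene, is encoded on chromosome 8 from 102648784 to 102655725 and was the steadiest of the family. Its DMSO values were 41.8, 45.3, 48.1, 51.6 and 49.6 CPM, and its SFN values were 50.4, 49.3, 53.3, 49.8 and 45.1 CPM. The log2 fold change of KLF10 was 0.07, with a 95% interval of -0.14 to 0.28 that leaves room for only a small change in either direction (adjusted p = 0.67 by the same test).

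**Figure D2:**
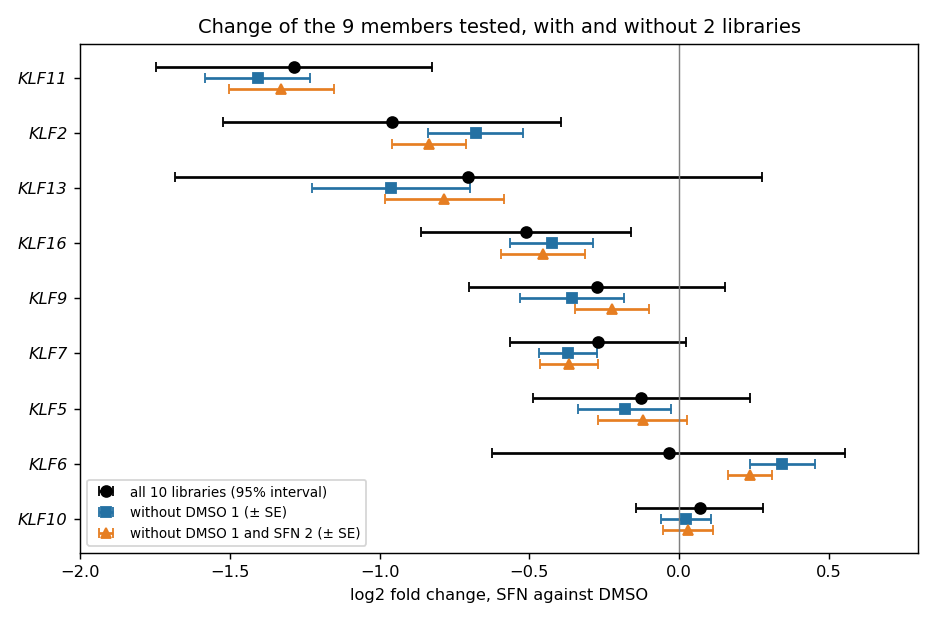
Log2 fold change (SFN against DMSO) of the 9 KLF mRNAs tested, with all 10 libraries (black, 95% interval), without DMSO 1 (blue, ± SE) and without DMSO 1 and SFN 2 (orange, ± SE). KLF11, KLF2 and KLF16 lie below 0 in all of them, as do KLF5, KLF7, KLF9 and KLF13. KLF6 moves from -0.03 to 0.35 and 0.24, and the interval of KLF13 is the widest.

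Within the family, the 5 SIN3-binding factors had a median log2 fold change of -0.51, with 2 decreased and 0 increased, and the 4 tested of the p300-binding factors had one of -0.20, with 1 decreased and 0 increased (13.9% and 9.07% of all genes tested). Over all genes tested the median was -0.03, and of the 9 KLF mRNAs only KLF10 had a positive value. Without DMSO 1 these medians were -0.42 and -0.28, with 3 decreased and 0 increased of the SIN3-binding factors and 2 decreased and 1 increased of the others (23.5% and 22.5% of all genes tested). The grouping was made after the values had been seen, and the difference between the groups was not tested.

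Per kilobase of the canonical transcript, the DMSO level was highest for KLF6 (48.3 ± 25.4 CPM per kb, SD, n = 5), followed by KLF10 (16.2 ± 1.32). KLF16 (6.18 ± 0.998), KLF2 (5.87 ± 2.48), KLF5 (5.05 ± 1.19) and KLF7 (4.37 ± 0.743) came next, and neighbours in this order lay within their spread. KLF9 had 2.90 ± 0.431 CPM per kb, KLF11 1.36 ± 0.344, KLF13 1.10 ± 0.521 and KLF4 0.0486 ± 0.0375. The study's methods name a kit that reads transcript ends, with which reads do not grow with length, while the sample labels name standard Illumina preparation, so which scale fits is not settled. Without division by length, long transcripts such as KLF7 (8365 bases) and KLF13 (6845 bases) stand higher, and KLF7 (36.6 ± 6.21 CPM) comes after KLF6 and KLF10 and before KLF16 (17.9 ± 2.90 CPM).

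The deviations of DMSO 1 and SFN 2 had the same sign in most of the KLF mRNAs tested. Measured on log2(CPM + 1) against the mean of the other libraries of its group, DMSO 1 was higher by 1.05 for KLF2, 1.34 for KLF6 and 0.40 for KLF16, and its difference was -2.002 for KLF13, -0.61 for KLF11 and -0.52 for KLF7. SFN 2 differed by 0.64 for KLF2, 0.50 for KLF6 and 0.18 for KLF16, and by -1.03 for KLF13, -0.78 for KLF9 and -0.31 for KLF11. In 8 of the 9 genes the sign was the same in both libraries, KLF7 being the exception, but KLF10 was only at -0.0067 in SFN 2. The share of all genes with the same sign is not given here. Over all genes tested, SFN 2 was the SFN library whose deviations correlated best with those of DMSO 1. Some library must rank first, and the size of that correlation is not given here. Whether the likeness was particular to the KLF genes was not tested. The median size of the deviation was 0.52 in DMSO 1 and 0.31 in SFN 2, and between 0.09 and 0.27 in the other 8 libraries. Over all genes, the change of log2 CPM with each doubling of transcript length was taken relative to the mean of the 10 libraries. This relative slope was -0.27 in DMSO 1 and -0.18 in SFN 2. In DMSO 2 to 5 it was 0.09 to 0.15, in SFN 1, 3 and 4 it was -0.06 to -0.04, and in SFN 5 it was 0.11. The short KLF2 (2820 bases) and KLF16 (2901 bases) were high in DMSO 1 and the long KLF13 and KLF7 low, but KLF10 (2915 bases) was slightly low and KLF6 (4590 bases) high. The part of length in these deviations, and in the comparison without DMSO 1, was not tested.

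**Figure D3:**
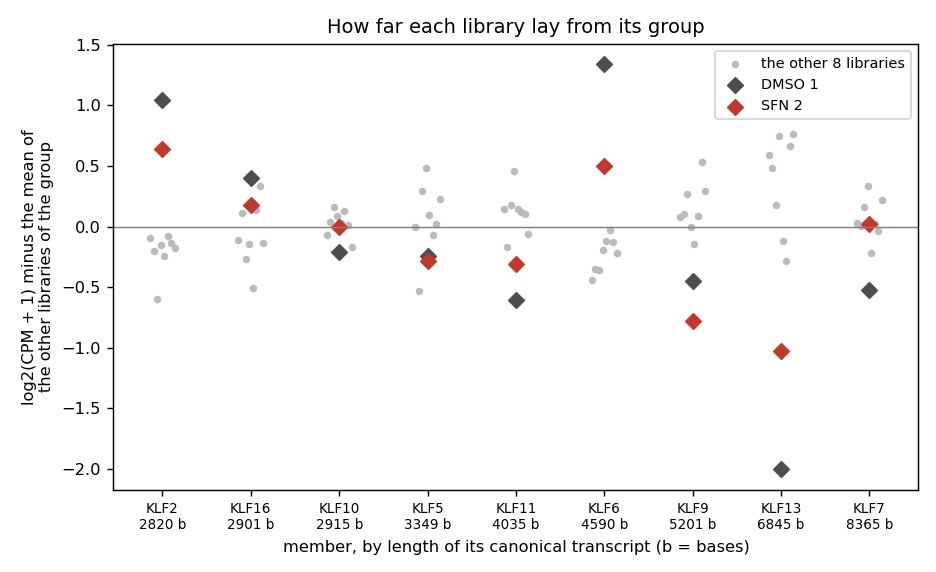
Difference of each library from the mean of the other 4 libraries of its group, in log2(CPM + 1), for the 9 KLF mRNAs tested, ordered by the length of the canonical transcript in bases. Dark and red diamonds are DMSO 1 and SFN 2, which share the sign in 8 of 9 genes and reach -2.002 and -1.03 for KLF13; grey points are the other 8 libraries.

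The genes that act with these factors were read from lists written from general knowledge of the family, with earlier results of these data known. Of the other KLF genes, KLF3 and KLF12, whose products bind the corepressor CtBP, were tested and 0 passed the threshold, with a median log2 fold change of -0.09. Of the related SP family, 4 genes were tested. SP4 fell from 7.07 ± 1.86 to 3.36 ± 1.27 CPM (SD, n = 5), with a log2 fold change of -1.06 (adjusted p = 0.024 by the edgeR QL test), and SP2 rose from 9.99 ± 2.01 to 13.9 ± 1.19 CPM (log2 fold change 0.48, adjusted p = 0.046), while SP1 and SP3 did not pass the test. The median over the list was -0.08. The SP2 call was kept in 7 of 20 alternatives and the SP4 call in 15. Of the 10 alternatives that left out 1 library, 6 kept the SP4 call and 1 kept the SP2 call.

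Among 16 cofactors and proteins of KLF turnover, 4 were decreased and 0 increased by the edgeR QL test, where 13.9% and 9.07% of all genes tested were, and the median log2 fold change was -0.09. SIN3A, the scaffold that KLF9, KLF10, KLF11, KLF13 and KLF16 bind, fell from 74.99 ± 25.4 to 42.5 ± 5.21 CPM (SD, n = 5), a log2 fold change of -0.82 (adjusted p = 0.034 by the same test). It was 30.0 CPM in DMSO 1 and reached 89.3 CPM in the other DMSO libraries, and without DMSO 1 the SIN3A log2 fold change was -1.03 (adjusted p = 1.5e-06). The SIN3A call was kept in 10 of 20 alternatives, and in only 2 of the 10 that left out 1 library, those without DMSO 1 and without SFN 5. It was lost with a replicate block (adjusted p = 0.064 by edgeR) and on quantile normalized values (adjusted p = 0.072 by limma-voom). The ubiquitin ligase subunits FBXW7, BTRC and VHL, which mark KLF proteins among other substrates for degradation, had log2 fold changes of -0.68, -0.79 and -0.57. Without DMSO 1 the FBXW7 value was -0.43, that of BTRC was -0.97 and that of VHL was -0.52. FBXW7 and BTRC were each decreased in 13 of 20 alternatives and VHL in all 20. Without DMSO 1 the list had 6 decreased and 1 increased, where 23.5% and 22.5% of all genes were.

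The kinase pathway that induces KLF2 and KLF4 under flow gave a mixed picture. MAPK7, which encodes ERK5, fell from 13.0 ± 4.48 to 6.99 ± 0.881 CPM (SD, n = 5), with a log2 fold change of -0.90 (adjusted p = 0.020 by the edgeR QL test). The lowest DMSO value of MAPK7, 6.10 CPM in DMSO 1, lay within its SFN range of 5.59 to 7.76 CPM. Without DMSO 1 the MAPK7 log2 fold change was -1.08 (adjusted p = 4.2e-05 by the same test). Its upstream kinase MAP2K5 rose from 7.71 ± 0.696 to 10.04 ± 1.07 CPM (log2 fold change 0.38, adjusted p = 0.045), and MEF2D, which encodes a transcription factor that ERK5 activates, rose from 21.1 ± 3.01 to 29.2 ± 5.69 CPM (0.47, adjusted p = 0.047). MEF2A and MEF2C did not pass the test, and the median log2 fold change of the 5 genes was 0.05. The MAP2K5 and MEF2D calls were each kept in 9 of 20 alternatives and the MAPK7 call in 16.

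Of 18 genes named in textbooks as KLF targets, 11 were tested, and 3 were decreased and 2 increased by the edgeR QL test, where 13.9% and 9.07% of all genes tested were, and the median log2 fold change was -0.10. THBD (thrombomodulin) and S1PR1 (a sphingosine 1-phosphate receptor), both known as KLF2 targets, fell. THBD went from 10.5 ± 0.939 to 4.20 ± 0.854 CPM (SD, n = 5), a log2 fold change of -1.32 (adjusted p = 1.2e-04 by the same test). S1PR1 went from 1.93 ± 0.494 to 0.621 ± 0.175 CPM, a log2 fold change of -1.61 (adjusted p = 0.0016), from 5 to 46 reads per library. PDGFA, a growth factor gene that KLF5 activates, fell most (log2 fold change -1.67, adjusted p = 3.6e-04). These decreases were kept in all 20 alternatives. CDKN1A (p21) and SMAD7 rose by 0.46 and 0.39 on the log2 scale, with adjusted p-values of 0.021 and 0.048, and were past the threshold in 14 and 9 of 20 alternatives. Each of these genes also answers to factors outside the KLF family.

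**Figure D4:**
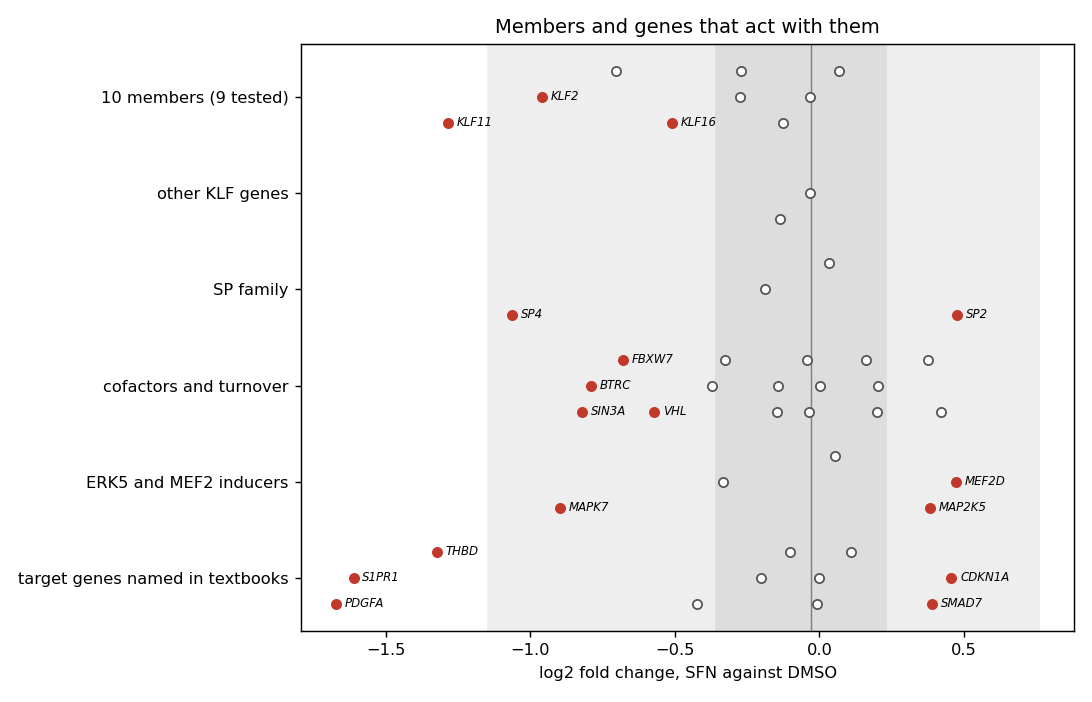
Log2 fold change (SFN against DMSO) of the KLF mRNAs tested and of the tested genes in each list, 1 point per gene, with genes past the adjusted p threshold filled and named. The dark and light bands run between the percentiles 25 and 75, and 5 and 95, of all genes tested and the line is their median of -0.03; KLF11, THBD, S1PR1 and PDGFA lie below the light band.

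By profile over the 10 libraries, taken as log2 CPM minus the gene's DMSO mean, the genes nearest to KLF11 among 8651 genes with at least 10 CPM were TRIM35, ZFP1 and GDF6, at root mean square distances of 0.18 each. Their log2 fold changes were -1.33, -1.18 and -1.15. Nearest to KLF2 were SNHG15 (distance 0.13), DUSP4 (0.18) and KIF3A (0.18), with log2 fold changes of -0.82, -0.995 and -1.01. In the plot of CPM by library, the KLF2 profile includes the high values of DMSO 1 and SFN 2. The genes near KLF2 share its fall with SFN, but their values in DMSO 1 and SFN 2 are not given here.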

How the data were processed

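Total RNA of 10 RPE-1 samples was sequenced by the authors. Their methods name Lexogen QuantSeq libraries, which read transcript ends, and the Bluebee pipeline with GRCh38, whereas the sample labels name standard Illumina preparation. The submitters' processing notes name FastQC, STAR, featureCounts and edgeR without versions. The authors deposited unnormalized counts, 1 row per Ensembl gene, with replicates kept separate, and all 10 columns were used. Groups follow the sample titles. The methods describe 5 replicates per treatment and call the study's replicates independent in general, without saying how these were plated or treated, so p-values measure the spread between these samples.

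R 4.3.3 was used with DESeq2 1.42.0, limma 3.58.1 and edgeR 4.0.16. Low counts were removed by filterByExpr, and the groups were compared after TMM scaling with glmQLFit and glmQLFTest (group only, all 10 libraries, adjusted p under 0.05). The standard error was the size of the log2 fold change over the root of F. The study's own model allowed for repeated measures, which it does not define, so a replicate block was an alternative. The members and lists were chosen with earlier results of these data known. All 10 members are named, and up to 6 genes past the threshold per list. A target gene was left out of its list and is not reported here. Positions and canonical transcripts are those of GENCODE 44, which held 28145 of the 28380 identifiers. Methods were tested on simulated data.

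The alternatives were other scaling (median-of-ratios, upper quartile, library size), DESeq2, limma-voom on quantile normalized values, no low-count filter or at least 1 CPM in 5 libraries, a replicate block, a 2-fold limit and leaving out each library. Sample quality weights and leaving out DMSO 1 and SFN 2 together were chosen after seeing the data.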

Additional observations from a re-analysis of the deposited data

Results flagged for a closer look

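In each group of 5 libraries, the gap between an extreme library and its nearest neighbour was divided by the range of the group, and 4 of 20 groups exceeded the 95% critical value of 0.71, where chance gives about 1. All 4 concern KLF2 and KLF6. For KLF2 the ratio was 0.784 in DMSO, where DMSO 1 had 28.8 CPM, and 0.853 in SFN, where SFN 2 had 12.3 CPM. For KLF6 it was 0.912 in DMSO, with 429.7 CPM in DMSO 1, and 0.773 in SFN, with 282 CPM in SFN 2. The same libraries were thus the high ones for both genes. With both left out, edgeR's quasi-likelihood test gave a log2 fold change of -0.83 for KLF2 (adjusted p = 4.7e-05) and 0.24 for KLF6 (adjusted p = 0.014). The libraries were flagged here by values of these same genes, and leaving out extreme values narrows their spread. These p-values are therefore no separate evidence of a change.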

How the results depend on the processing

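KLF11 was decreased under all 20 alternatives. Over all genes, 1214 were increased and 1862 decreased; these became 393 and 770 with a 2-fold limit, 3874 and 4041 with sample quality weights, 3106 and 3273 without DMSO 1 and SFN 2, and from 906 to 3058 and from 1470 to 3193 when 1 library was left out, the highest without DMSO 1. Of the KLF mRNAs, 0 increased and 3 decreased became 1 and 6 with quality weights, 1 and 5 without DMSO 1 and SFN 2, 0 and 1 on quantile normalized values or with the 2-fold limit, and 1 increased without a low-count filter (KLF4), with from 0 to 1 and from 1 to 5 when 1 library was left out. In the lists together, 5 genes were increased and 9 decreased by edgeR, with 0 increased by library size only or without a filter, 1 with upper quartile factors, 5 decreased on quantile normalized values, 8 increased and 17 decreased with quality weights, 7 increased and 13 decreased without DMSO 1 and SFN 2, and from 0 to 6 and from 4 to 14 with 1 library left out.

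Values that lost the threshold were KLF2 (-0.77) and KLF16 (-0.42) on quantile normalized values and KLF16 (-0.52) without a filter. Leaving out 1 library gave -1.12 to -0.68 for KLF2, -0.58 to -0.41 for KLF16, -0.37 to -0.20 for KLF7, -0.40 to -0.14 for KLF9 (lowest size without SFN 2), -0.23 to -0.015 for KLF5 (without DMSO 3 and without DMSO 5), -0.96 to -0.52 for KLF13 and -0.14 to 0.35 for KLF6, which was 0.01 without SFN 5. Quality weights took KLF6 (0.28), KLF7 (-0.41), KLF9 (-0.32) and KLF13 (-0.97) past the threshold, as leaving out DMSO 1 and SFN 2 did KLF6 (0.24), KLF7 (-0.37) and KLF13 (-0.78). Small values changed sign for KLF5 (0.0087) and KLF6 (0.0033) on quantile normalized values and for KLF10 (-0.023) with library size only. The cause was not tested.

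Libraries of the same number did not deviate together in every pair: the correlations across genes ran from -0.27 to 0.48, and only replicate number 5 correlated above 0.1 and best with its own number, so the numbers were not taken to pair the samples. With a replicate block KLF16 was -0.51 (adjusted p = 0.10 by edgeR), KLF6 was 0.079 and 0 list genes were increased, while KLF2 and KLF11 stayed past the threshold. Counts limit KLF4 most, at 0 to 14 reads per library.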

Other observations

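Features of the transcripts that the choice of genes did not use were read from the canonical transcripts of GENCODE 44. The 10 KLF transcripts had a median of 4 exons and 3692 bases, against 8 exons and 3173 bases over 13324 genes tested. Their 3′ UTR had a median of 2194.5 bases and 2.32 copies of ATTTA, the core of AU-rich decay elements, per kilobase, against 1406 bases and 1.82 copies over 11613 genes tested with a 3′ UTR. The density was 2.58 for KLF11 and 2.42 for KLF2, which fell, but also 2.23 for KLF10 and 3.03 for KLF5, which did not pass the test. It was lowest for KLF16 (0.971), which fell, and KLF13 (0.893). No order of the changes by this density was tested.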
